A study of Mus musculus with 12 samples.

Results

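The regions described here are stretches of the mouse genome that both mutants of a MyoD and NeuroD2 chimera bound in P19 cells and that no other protein of the study was listed at. They were found by pooling 5 deposited lists of binding intervals, merging intervals that share at least 1 base, and keeping merged regions with an interval in the WCS list and in the WC list and none in the other 3 lists. This gave 2151 of the 60136 merged regions, or 3.58%. The regions were thus chosen by the intervals themselves, that is by listing in the 5 files, so their listing is a description and not a result. Coordinates are given in mm9.

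P19 is an embryonal carcinoma line of the mouse. Cells of 5 groups were transduced: MD(ND2bHLH)WCS mutant (called WCS), MD(ND2bHLH)WC mutant (WC), MD(ND2bHLH) chimera (the chimera), NeuroD2 and MyoD. A 6th group was left untransduced as the negative control, and no list of it was analysed here. The chimera is MyoD carrying the bHLH domain of NeuroD2 in place of its own, and both mutants are built on that chimera. The labels do not spell out the letters W, C and S. The labels give 1 protocol for all groups, in which cells received polybrene at 8 µg/ml, fresh medium after 24 h and a neuronal medium after 48 h. The time of harvest is not given in the labels. Each group has 2 libraries. MyoD antibodies 6196 and 6975 were used for both mutants, the chimera and MyoD, NeuroD2 antibodies 1165 and 1240 for NeuroD2, and antibodies 1240 and 6975 for untransduced cells. Both libraries of a group point to 1 list, so there is no spread between replicates, no read depth and no test between groups. The intervals in parentheses are 95% exact binomial (Clopper-Pearson) intervals and cover counting error only.

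MyoD and NeuroD2 are basic helix-loop-helix (bHLH) transcription factors. The basic part contacts DNA and the helix-loop-helix part pairs the factor with an E protein, and the pair binds E-boxes, short sites of the form CANNTG. The bases in the middle and around the E-box differ in preference between bHLH factors: MyoD directs skeletal muscle genes and NeuroD2 directs neuronal genes. Outside its bHLH domain MyoD also has a stretch with a tryptophan and cysteines through which it contacts the homeodomain partners Pbx and Meis at some muscle genes. The labels do not say whether the mutations lie there. A region listed for both mutants but neither for the chimera nor for NeuroD2 therefore differs in its listing from the protein the mutants were made from and from the factor that gave the DNA-binding domain. No genome of the build of the files (mm9) was used, so neither E-boxes nor genes near the regions are reported.

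The WCS list held 22462 intervals, the WC list 27045, the chimera list 14375, the NeuroD2 list 31458 and the MyoD list 24935. Each interval carries the authors' value, taken here for −log10 of a p-value, from just above 5 upwards, with some values given as infinite. A percentile below is the place of a value within its own list, from 0 for the weakest to 100 for the strongest. The chimera and MyoD lists hold 0 intervals on chromosome X, against 362 in WCS, 403 in WC and 570 in NeuroD2. Their shortest intervals have 200 and 125 bases, against 54 in both mutants and 53 in NeuroD2. Of the 2151 regions, 99 lie on chromosome X and 15 have no interval of 200 bases or more, which makes 110 regions (5.11%) of a kind that the chimera list does not hold anywhere. Whether the lists passed different filters was not tested.

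Both mutants were listed together at 18222 merged regions, 30.3% of all, and the 2151 without another list made up 11.8% of them (11.3 to 12.3%). The largest set was shared with NeuroD2 alone, 7602 regions or 41.7% (41.0 to 42.4%). The regions of all 5 lists came next, with 3515. Regions of both mutants with the chimera alone numbered 379 (2.08%), and those with MyoD alone numbered 324 (1.78%). Regions of both mutants with no other list were therefore more numerous than those with the chimera, the parent protein, as the only other list. They were fewer than the 2599 regions (14.3%) shared with the chimera and NeuroD2. The chimera was listed in the regions of all 5 lists as well, and its list was the shortest. The 2151 regions took up 2155 WCS intervals, 9.59% of that list, and 2154 WC intervals, 7.96% of that list. Keeping the stronger 50% of all 5 lists left 1305 such regions, and applying that limit to both mutant lists alone left 360.

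**Figure D1:**
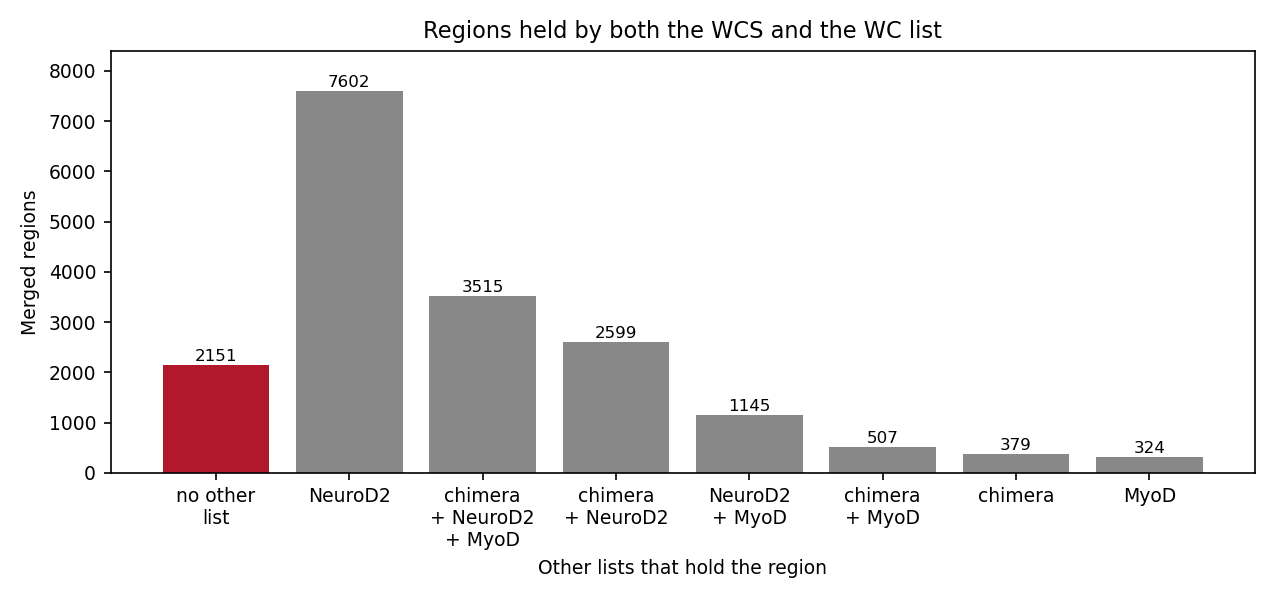
Number of merged regions held by both the WCS and the WC list (vertical axis), by the other lists that hold the region (horizontal axis). The red bar is the 2151 regions with no other list, fewer than the 7602 shared with NeuroD2 alone and more than the 379 shared with the chimera alone. The chimera and NeuroD2 together shared 2599.

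The regions had low to middling values in both lists. WCS values had a lowest value of 5.03, a median of 7.72 and a highest finite value of 163, and 2 regions had an infinite value. WC values had a lowest value of 5.04, a median of 8.05 and a highest finite value of 180, and again 2 were infinite. The medians of the whole lists were 10.0 for WCS and 10.5 for WC. In percentiles the median region stood at 34.8 in the WCS list and at 34.4 in the WC list. The values are coarse: the 2151 regions shared 233 distinct WCS values, and 66 regions had a WCS value of 5.18.

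Above the 50th percentile of the WCS list were 614 of the regions, 28.5% (26.6 to 30.5%), beside 50.4% of all regions in that list. For WC the number was 604, 28.1% (26.2 to 30.03%), beside 50.2% of all regions in that list. Above the 90th percentile were 17 of the regions in the WCS list, 0.790%, beside 10.1% of all its regions, and 20 in the WC list, 0.930%, beside 10% of all its regions. A threshold on these values made the lists, so the numbers describe the regions and test nothing.

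Regions of a single mutant had lower values still. The 2151 regions had a median WCS value of 7.72, the 7602 regions that NeuroD2 shared with both mutants 11.0, and the 1829 regions of WCS alone 6.05. The median WC value was 8.05 in the 2151 regions, 12.4 in the NeuroD2 set and 6.68 in the 3795 regions of WC alone. Regions of both mutants and MyoD alone had values like those of the 2151 regions, with medians of 7.72 for WCS and 7.24 for WC. Regions of both mutants and the chimera alone had medians of 8.54 for WCS and 12.2 for WC. In percentiles the medians were 34.8 in WCS and 34.4 in WC for the 2151 regions. Where the chimera alone was listed too they were 41.3 in WCS and 56.6 in WC, further apart.

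The share of intervals that fell in the 2151 regions was flat over the weaker part of each list and fell in the stronger part. In the WCS list it was 13.3% in decile 1, the lowest values (11.9 to 14.8%), 14.9% in decile 4 (13.5 to 16.4%), 4.82% in decile 8 and 0.757% in decile 10, the highest (0.441 to 1.21%). In the WC list it was 11.5% in decile 1 (10.4 to 12.8%), 13.3% in decile 4, 3.61% in decile 8 and 0.741% in decile 10 (0.453 to 1.14%). Intervals listed in 1 mutant alone followed another course, with 27.9% of decile 1 of WCS and 36.5% of decile 1 of WC, and a decline from there on. Intervals shared with NeuroD2 alone were most frequent in decile 7 of both lists, at 47.1% for WCS and 40.01% for WC.

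**Figure D2:**
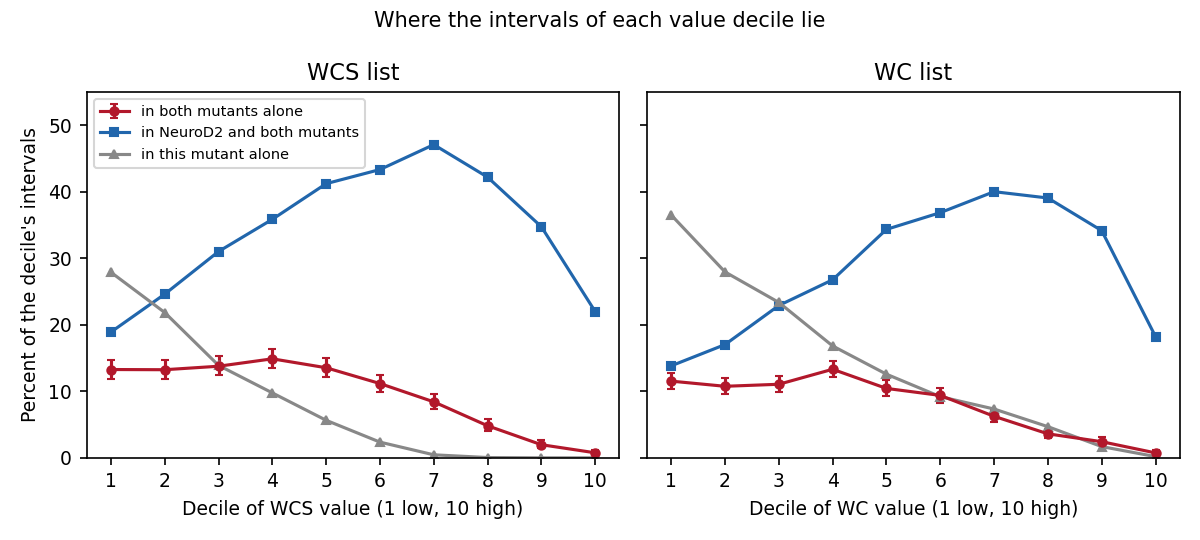
Percent of the intervals in each decile of the values (vertical axis) of the WCS list (left) and the WC list (right), from the lowest values (1) to the highest (10). The red points are intervals in regions of both mutants alone, with 95% exact binomial intervals; in WCS they stay between 13.2% and 14.9% over deciles 1 to 5 and drop to 0.757% in decile 10.

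The mutants ranked these regions in a related but loose order. Across the 2151 regions Spearman's rho between WCS and WC percentiles was 0.477, against 0.738 across the 7602 regions shared with NeuroD2. Both sets come from the same 2 lists, and the first spans a narrower range of values. The WCS percentile was the higher of the pair in 1117 regions (51.9%), and the median difference, WCS minus WC, was 0.773 percentile points. The median size of the difference was 13.3 points here and 10.1 points in the NeuroD2 set.

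Of the 2151 regions, 1294 (60.2%) stood at or below the 50th percentile in both lists, beside 28.1% of all regions of both mutants. Above the 50th percentile in both lists were 361 (16.8%), beside 51.4%, and above the 75th in both were 48 (2.23%), beside 25%. The remaining regions were split almost evenly, 253 with WCS above and WC below the 50th percentile and 243 the other way round.

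**Figure D3:**
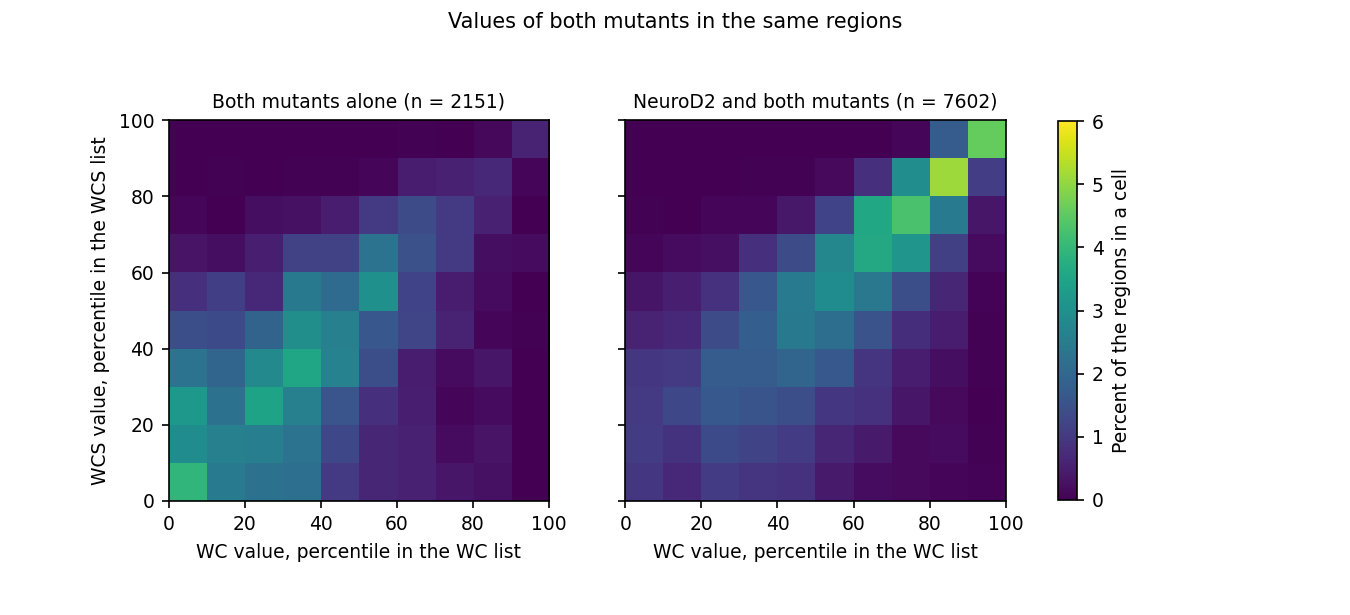
Percentile of the WCS value in the WCS list (vertical axis) against that of the WC value in the WC list (horizontal axis), as the percent of regions in each cell of 10 by 10 points. The 2151 regions of both mutants alone (left) gather at low and middle percentiles with a rho of 0.477. The 7602 regions shared with NeuroD2 (right) spread along the diagonal from low to high percentiles. Their medians are 54.6 in WCS and 57.5 in WC, and their rho is 0.738.

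Some regions were strong in 1 mutant and close to the lower limit in the other. The largest excess of WC lay at chr2:155481708-155482139, with a value of 5.18 in WCS and 38.1 in WC. A region at chr15:71497082-71497545 had 5.18 in WCS and 34.9 in WC, and a region at chr8:82015586-82015981 had 5.36 in WCS and 38.4 in WC. The difference in these 3, WCS minus WC, was −85.3, −83.8 and −83.5 percentile points. The largest excess of WCS was smaller. At chr1:16120076-16120513 the value was 19.8 in WCS and 5.69 in WC, a difference of 66.6 points. At chr19:17212689-17213040 it was 24.3 in WCS and 6.23 in WC, and at chr12:100883631-100883976 it was 15.03 in WCS and 5.25 in WC. At the other end, several regions were tied at the lowest WC value, 5.04. The 3 widest of them lay at chr14:60355873-60356413, with 11.8 in WCS, at chr17:84891738-84892136, with 8.38, and at chr1:173876619-173876985, with 10.6.

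Within a region the intervals of WCS and WC coincided closely, a property the merging rule does not fix beyond 1 base. In 2145 of the 2151 regions there was 1 interval of each mutant. Their centres lay a median of 22 bases apart, with a middle range (quartiles) of 8.5 to 42.5 bases. The centres were within 25 bases in 1176 of the 2145 regions (54.8%) and within 100 bases in 2085 (97.2%). In the regions shared with NeuroD2 the median offset was 19.5 bases, and the centres were within 25 bases in 60.8% and within 100 bases in 97.6%.

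The median overlap of the 2 intervals was 255 bases, and the overlap was 78.4% of the joint stretch in the median region, against 82.9% in the NeuroD2 set. In 1158 regions (53.99%) an interval of 1 mutant lay wholly inside that of the other. In 18 of the 2145 regions the overlap was under 50% of the shorter interval, against 6 of 7499 in the NeuroD2 set. The median interval was 285 bases long in WCS and 310 in WC, and WCS had the narrower interval in 1325 regions (61.8%). In the NeuroD2 set both were wider, at 336 bases in WCS and 366 in WC.

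The merged regions had a median width of 341 bases (quartiles 296 and 384), against 434 bases for the regions shared with NeuroD2 and 368 over all merged regions. It was 233 bases for WCS alone and 277 for WC alone. A merged region spans all its intervals, so its width depends in part on the number of lists in it. The widest of the 2151 regions was at chr1:140760536-140762443, 1908 bases long, with 11.9 in WCS and 9.10 in WC. The next had 1085 bases at chr14:43794694-43795778 and 1060 bases at chr17:76607689-76608748. The narrowest 2 lay on chromosome X, with 62 bases at chrX:122696745-122696806 and 63 bases at chrX:121207403-121207465. The third was 104 bases long, at chr5:18503379-18503482. Values in these narrow regions were between 5.16 and 6.57 in WCS and between 5.30 and 5.63 in WC.

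The strongest regions were the same in both lists at the top. A region at chr9:3003308-3003690 had an infinite value in WCS and in WC. It lay 118 bases from a NeuroD2 interval that is also infinite and 132 bases from a chimera interval with a value of 16.0. A region at chrX:166649918-166650296 was infinite in both mutants as well, and its nearest NeuroD2 interval was 203023 bases away. The next, at chr4:134150634-134151009, had 163 in WCS and 180 in WC. Weak intervals of NeuroD2 (5.03) and MyoD (6.61) lay 1719 and 1718 bases from it.

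A further region at chr9:3011344-3011987 had 106 in WCS and 95.5 in WC. A NeuroD2 interval with a value of 9.98 lay 627 bases away. At chr8:19926230-19926608 the values were 92.2 in WCS and 97.4 in WC, and a NeuroD2 interval with 45.5 lay 307 bases away. At chr17:71312854-71313269 they were 93.5 in WCS and 93.6 in WC. The nearest NeuroD2 interval there was 74887 bases away, the nearest chimera interval 29667 and the nearest MyoD interval 3483. Of these 6 strongest regions, 5 thus lay either on chromosome X or in a window of 100 kb crowded with intervals.

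Crowded windows were measured directly. A window of 100 kb was called dense where any 1 list had 10 or more intervals in it, which held for 287 windows. Of the 2151 regions, 250 lay in dense windows, 11.6% (10.3 to 13.1%), beside 8.26% of all merged regions. The share was 9.31% (8.67 to 9.99%) among regions shared with NeuroD2, 7.60% (6.43 to 8.91%) for WCS alone and 5.11% (4.43 to 5.86%) for WC alone. Regions of all 5 lists had a larger share, 13.7% (12.5 to 14.8%), with an interval that overlaps that of the 2151 regions. Where every list except MyoD held the region it was 10.8% (9.61 to 12.03%). It was 9.83% for NeuroD2 alone, 8.18% for both mutants with the chimera alone and 6.79% for both mutants with MyoD alone. A high share in dense windows was thus not particular to the 2151 regions. Chromosome 8 held 54 of the 250, chromosome 1 held 38, chromosome 5 held 37, chromosome 4 held 30 and chromosome 14 held 29. How uniquely reads align there was not tested.

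The share in dense windows was larger among stronger regions. Regions were divided by the lower of their WCS and WC percentiles. Of the 1070 with a lower percentile up to 25, 7.94% lay in dense windows (6.39 to 9.73%). Of the 720 between 25 and 50 it was 12.2% (9.92 to 14.8%), of the 313 between 50 and 75 it was 18.5% (14.4 to 23.3%), and of the 48 above 75 it was 39.6% (25.8 to 54.7%). On X or in a dense window lay 22 of those 48 (45.8%), against 11.7% of the 1070 in the lowest band. In the highest band of the regions shared with NeuroD2 it was 286 of 1312 (21.8%). In the regions shared with NeuroD2 the share in dense windows was 7.33% in the lowest of these bands and 17.9% in the highest.

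The window with the most of the regions was at chr5:14900001-15000000, with 16. It held 60 WCS, 63 WC, 10 chimera, 67 NeuroD2 and 5 MyoD intervals. The 16 regions had WCS values from 7.28 to 63.5 with a median of 16.3, and WC values from 6.35 to 68.9 with a median of 19.2. They lay between 6 and 1842 bases from the nearest NeuroD2 interval. Next came chr8:19700001-19800000, with 13 regions, and chr8:19800001-19900000, with 12. Chromosome 5 from 15100001 to 15200000 held 11 and chr8:20000001-20100000 held 9. A window at chr14:44100001-44200000 tied with the last of these. In the 5 leading windows together were 61 regions, whereas 1622 of the 2151 were alone in their window.

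Distance to the sites of the other proteins was next measured edge to edge. A NeuroD2 interval lay at most 10 kb from 842 of the regions, 39.1% (37.1 to 41.2%). Among all merged regions without a NeuroD2 interval the share was 37.6%. It was 37.7% (35.5 to 39.99%) for WCS alone and 38.2% (36.7 to 39.8%) for WC alone. For the chimera the share within 10 kb was 23.8% (22.1 to 25.7%), beside 24.9% of all regions without a chimera interval. For MyoD it was 26.7% (24.9 to 28.7%), beside 30.7% of all regions without a MyoD interval. Neither the chimera nor the MyoD list holds chromosome X, so the 99 regions there count as beyond 10 kb. They are 4.60% of the 2151, whereas X makes up 1.3% of all merged regions. How far this lowered the chimera and MyoD shares was not tested. At this distance the shares for NeuroD2 and for the chimera were near their background.

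Closer in, the share for NeuroD2 was above its background, and its interval overlapped that of WCS alone. At most 1 kb from a NeuroD2 interval lay 242 of the regions, 11.3% (9.95 to 12.7%), against 8.64% (7.39 to 10.0%) for WCS alone and 8.30% (7.44 to 9.22%) for WC alone. Over all merged regions without NeuroD2 it was 7.89%. In dense windows 101 of the 250 regions (40.4%) had a NeuroD2 interval within 1 kb, and the median distance of the 250 was 1629 bases. A window counts as dense by the number of intervals of any list, NeuroD2 included. Short distances there follow in part from that definition. Outside dense windows the share was 7.42% (6.28 to 8.69%) for both mutants alone, 6.15% (5.06 to 7.41%) for WCS alone and 7.14% (6.32 to 8.03%) for WC alone. These intervals overlap.

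**Figure D4:**
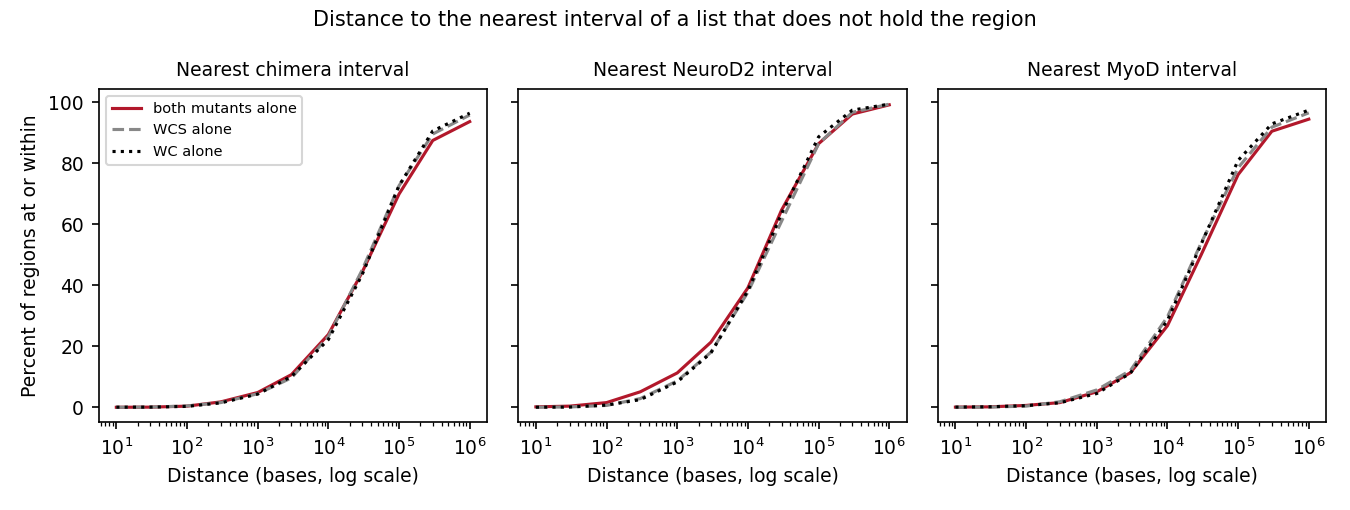
Percent of regions (vertical axis) whose nearest chimera (left), NeuroD2 (middle) or MyoD (right) interval lies at or within a distance in bases (horizontal axis, log scale). The curves of both mutants alone (red), WCS alone (dashed) and WC alone (dotted) run close together, with 39.1%, 37.7% and 38.2% of the regions within 10 kb of NeuroD2.

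No interval of the chimera, NeuroD2 or MyoD lay within 10 kb of 1017 of the regions, 47.3% (45.2 to 49.4%). The same share was not computed for other sets, so it is not known to be particular to these regions. The 1017 isolated regions had median values of 7.66 in WCS and 8.05 in WC, against 7.72 in WCS and 8.05 in WC for the other 1134. Above the 50th percentile in both lists were 16.3% of the isolated regions (14.1 to 18.7%) and 17.2% of the others (15.04 to 19.5%). Above the 75th percentile in both were 1.57% of the isolated regions (0.902 to 2.54%) and 2.82% of the others (1.94 to 3.96%). Isolated regions and those near a site of another protein thus differed little in median value. The 2 sets were unlike in place. On chromosome X, where only NeuroD2 could lie near, were 75 of the 1017 and 24 of the 1134. In dense windows were 16 of the 1017 and 234 of the 1134.

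At the edge of the rule, 4 regions lay within 10 bases of an interval of another list and 46 within 100 bases. The closest was at chr5:14953107-14953472, 6 bases from a NeuroD2 interval with a value of 20.3, with 27.8 in WCS and 29.6 in WC. Regions at chr4:13436337-13436653 and at chr17:14864524-14864840 lay 8 bases from a NeuroD2 and a MyoD interval. Just outside the rule, a region at chr6:99979641-99980860 was kept out by an overlap of 34 bases with MyoD. An overlap of 42 bases with NeuroD2 kept out chr8:71998409-71999038, where the values were 25.6 in WCS, 31.7 in WC and 6.17 in NeuroD2. An overlap of 65 bases with MyoD kept out chr2:167075102-167075915. Of the regions of both mutants with a single interval of 1 other list, 9 overlapped it by at most 100 bases.

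By chromosome, chromosome 2 held the most of the regions, 174, and chromosome 19 the fewest, 48. Set against all regions of both mutants on the chromosome, the share without another list was between 8.83% on chromosome 6 and 20.1% on chromosome 14 among the autosomes, with a median of 11.2%. Chromosome 14 stood at 20.1% (17.0 to 23.4%), or 126 of 627. Without dense windows it was 16.9% (13.9 to 20.3%). Without both of its leading stretches of 1 Mb, from 43000001 to 45000000 with 19 regions in each, it was 15.3% (12.5 to 18.5%).

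Chromosome X held 99 of the regions, 4.60% (3.76 to 5.58%), beside 1.3% of all merged regions. Because neither the chimera nor the MyoD list holds X, NeuroD2 alone can keep a region of X out. Of the 284 regions of both mutants on X, 34.9% (29.3 to 40.7%) had no NeuroD2 interval. The same measure on the autosomes, with the chimera and MyoD disregarded, was 18.2% (17.6 to 18.8%), or 3262 of 17938. Outside dense windows it was 37.0% (30.8 to 43.4%) on X and 18.3% (17.7 to 18.9%) on the autosomes. The 99 regions of X had median percentiles of 39.5 in WCS and 39.4 in WC. In the 88 outside dense windows the nearest NeuroD2 interval lay a median of 86989 bases away, against 19524 bases on the autosomes. The cause of the difference on X was not tested.

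**Figure D5:**
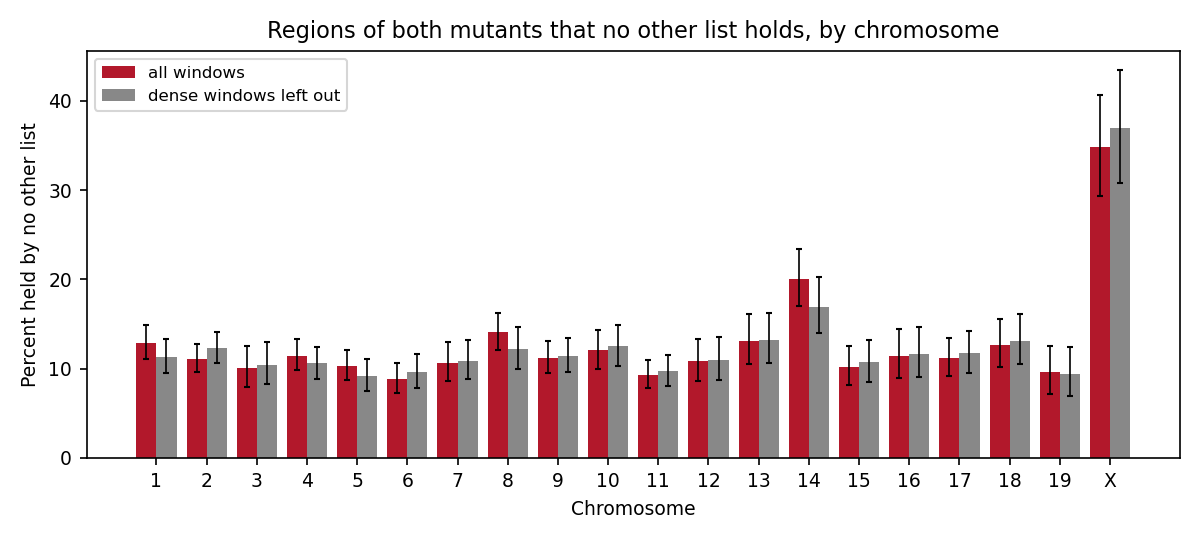
Percent of the regions of both mutants that no other list holds (vertical axis) on each chromosome (horizontal axis), over all windows (red) and with dense windows left out (grey), with 95% exact binomial intervals. Chromosome X stands at 34.9% and chromosome 14 at 20.1%, above the median of 11.2% over the autosomes. On X only NeuroD2 can keep a region out, so its bar is unlike the others. With the chimera and MyoD disregarded, the autosomes stand at 18.2%.

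The spacing of the regions among themselves was measured with and without dense windows. Another region of both mutants alone was within 10 kb for 286 of the 2151, 13.3% (11.9 to 14.8%). The share was 7.87% (6.68 to 9.20%) for WCS alone and 8.59% (7.72 to 9.53%) for WC alone. With dense windows left out it was 7.10% (5.99 to 8.35%) for both mutants alone, 4.73% (3.77 to 5.86%) for WCS alone and 7.94% (7.08 to 8.87%) for WC alone. Regions shared with NeuroD2 had larger shares, 21.6% (20.7 to 22.5%) over all windows and 17.9% (17.0 to 18.8%) outside dense windows. The sets differ in size, with 7602 regions in the NeuroD2 set and 2151, 1829 and 3795 in the others. The share for both mutants alone was above that for the larger WC set over all windows and below it outside dense windows. Dense windows are defined by many intervals of a list, so close spacing within them follows in part from the definition.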

How the data were processed

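Binding was measured by ChIP-seq in 12 libraries of 6 groups. The authors deposited 5 lists of intervals, 1 per transduced group. The tools named per the submitters' processing notes are BWA 0.7.5 and CASAVA 1.8.2, with build mm9. What filters, background, pooling and peak caller were applied is not given in the sources used here. The deposited value of an interval was taken for −log10 of a p-value by its range alone. Percentiles rank intervals within a list only. Values are printed as deposited, and whether they share a scale between lists was not tested. Intervals were merged where they shared at least 1 base. The highest value of a list in a region was taken, coordinates are 1-based, and distances run edge to edge. No test between groups was possible with 1 list per group, and shares have exact Clopper-Pearson intervals.

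Regions named are those with the highest values, the highest and lowest joint percentile, the largest WCS and WC difference, the extreme widths, the smallest gaps or overlaps, the leading windows and the extreme chromosomes. The regions, sets and measures were chosen with earlier results of these data known. The planned E-box count was not run, since it needs a genome of mm9. The merging and distance steps were tested on simulated data. Software was pandas 2.3.3, numpy 2.4.6 and scipy 1.17.1 under Python 3.11.15, with matplotlib 3.10.9 for figures.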

Additional observations from a re-analysis of the deposited data

How the results depend on the processing

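The 2151 regions were recomputed under 8 alternatives and under 2 more chosen after seeing the data (autosomes only with dense windows removed, and the WC intervals of highest value, as many as WCS has). Their number stayed within 1.5 times of 2151 except with the stronger 50% of all lists, where it was 1305, and with that limit on both mutant lists alone, where it was 360. Their share of the regions of both mutants, 11.8%, was 14.6% with centres at most 100 bases apart, 10.9% with intervals within 500 bases joined, 13.9% with the top 50% of each list, 3.84% with the top 50% of the mutant lists alone, 14.7% with every list at 14375 intervals, 11.3% with autosomes only and dense windows removed, and 9.89% with the shortened WC list. The share within 10 kb of NeuroD2, 39.1%, was 48.4% by centres, 33.5% with intervals joined, 32.5% without dense windows, 32.6% with the top 50% of each list, 42.2% with the top 50% of the mutant lists alone, 30.9% at equal length, and 33.1% with autosomes only and dense windows removed. The median percentiles were 38.5 in WCS and 37.7 in WC by centres. Fewer intervals entered under the shortened lists. Joining intervals within 500 bases takes out regions that close to another list, as 210 of the 2151 were. By centres, a region can still overlap an interval of another list, which then counts as within 10 kb. The shifts under joining and by centres in the share near NeuroD2 thus follow in part from the settings. The cause of the other shifts was not tested. No replicate could be left out and no paired analysis was possible because each group has 1 list. Read depth is unknown, so a site under the authors' threshold in another list cannot be told from no site.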

Other observations

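Strong regions of both mutants alone outside dense windows and off chromosomes X and 18 were listed after their values were seen, by the lower of their WCS and WC percentiles. After the region on chromosome 17 described above came chr16:93789283-93789649 (mm9), with 58.8 in WCS and 73.5 in WC. A MyoD interval with a value of 16.2 lay 994 bases from it and a NeuroD2 interval with 5.23 lay 2992 bases from it. At chr3:124106795-124107152 the values were 54.05 in WCS and 62.4 in WC, and the nearest chimera, NeuroD2 and MyoD intervals were 82546, 247262 and 82647 bases away. At chr11:56989455-56989810 they were 46.3 in WCS and 56.0 in WC, with a NeuroD2 interval of 24.96 at 8723 bases. At chr14:8838458-8838667, a stretch of 210 bases, they were 29.7 in WCS and 50.7 in WC. At chr2:5235579-5236050 they were 31.8 in WCS and 32.4 in WC, and the nearest interval of another list, of MyoD, was 37855 bases away.

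The megabase at chr8:19000001-20000000 held the most of the regions, 32 among its 126 regions of both mutants. Over all chromosomes 11.8% of the regions of both mutants had no other list. The megabases named here were picked by their number of the regions. Neighbouring megabases on chromosome 14, from 43000001 to 44000000 and from 44000001 to 45000000, held 19 of 25 and 19 of 27. NeuroD2 intervals were few there, in 16 of 56 and 11 of 54 merged regions, against 119 of 187 in the megabase of chromosome 8. Over all chromosomes, 29128 of the 60136 merged regions had no NeuroD2 interval. The rule keeps out regions with NeuroD2, so the high shares on chromosome 14 are in part a matter of the rule. At chr1:85000001-86000000, 19 of 37 regions of both mutants had no other list, and at chr4:145000001-146000000 it was 19 of 28. The megabase at chr5:15000001-16000000 also held 19, but of 102 regions of both mutants. No explanation of these clusters was tested.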
